A study of Rattus norvegicus with 32 samples.

Results

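The metabotropic glutamate receptors are G protein-coupled receptors for glutamate, and 6 of their genes, Grm2, Grm3, Grm4, Grm5, Grm7 and Grm8, were followed by exact symbol in a table of read counts for 34322 gene symbols. All 6 were among the 17059 genes with enough counts to be tested. The 32 libraries were made from polyadenylated RNA of the nucleus accumbens shell, the medial part of the ventral striatum, of WT (wild-type) rats. Every rat had been through fear conditioning with shocks and was killed after a last shock. The shocks had come with a lemon odour (here the anxiety cue) or with a neutral cue, the cue was present again during anxiety tests, and cannabidiol (CBD) or vehicle was given ahead of those tests. CBD comes from the cannabis plant and is not intoxicating. The 4 groups of 8 libraries were CBD with the anxiety cue, vehicle with the anxiety cue, CBD with the neutral cue and vehicle with the neutral cue. The labels used here give no sex, age, dose or batch. Nor do they say whether libraries came from different rats, so p-values measure the spread among these libraries, which may in part be technical.

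Glutamate acts on these receptors through G proteins, and so more slowly than on its ion channels. Group I receptors, such as the product of Grm5, couple to Gq, phospholipase C and calcium release and lie mostly on the postsynaptic side. Group II receptors (Grm2 and Grm3) and group III receptors (Grm4, Grm6, Grm7 and Grm8) couple to Gi and Go, lower cyclic AMP and mostly reduce transmitter release from terminals. In the striatum the group I receptor mGlu5 is abundant on medium spiny neurons, the GABAergic projection neurons of this tissue.

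The start regions of Grm5 and Grm7 are shown because these members had the highest correlation of any member pair across the 26 libraries with little Slc17a6 (described further on), a choice made after their values were seen. Each window is 300 bases long, most of them ahead of a start site in RefSeq on the build GRCr8, which is not among the builds named for the counts. The table of start regions held a window for 3 of the 6 members, Grm5, Grm7 and Grm8. Sequences read 5′ to 3′ on the gene's strand, and capitals mark matches to the GC box GGGCGG on either strand.
Grm5, chr1:150733503-150733802, plus strand: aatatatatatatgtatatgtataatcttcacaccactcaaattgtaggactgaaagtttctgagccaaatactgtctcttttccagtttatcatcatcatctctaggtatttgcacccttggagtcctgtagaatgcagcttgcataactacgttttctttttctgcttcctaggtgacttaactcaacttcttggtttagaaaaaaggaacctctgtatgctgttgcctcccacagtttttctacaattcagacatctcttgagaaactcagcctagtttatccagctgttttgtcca
Grm7, chr4:145286476-145286775, plus strand: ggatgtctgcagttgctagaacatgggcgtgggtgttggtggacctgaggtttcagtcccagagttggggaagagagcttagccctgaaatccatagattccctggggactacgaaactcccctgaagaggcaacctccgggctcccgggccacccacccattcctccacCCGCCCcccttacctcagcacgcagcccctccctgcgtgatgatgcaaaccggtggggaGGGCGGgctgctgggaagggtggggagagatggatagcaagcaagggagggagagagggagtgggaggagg
The Grm7 window held 62% G and C and 9 CG pairs, against medians of 51.7% and 7 CG pairs over 33465 windows of the same length. It had a GC box on the minus strand at -80 and another on the plus strand at -21 from the start site, and 33.1% of all windows had at least 1. The Grm5 window held 37.3% G and C and 1 CG pair, and its start site lay 11042 bases inside the outer bounds of the gene. Besides the GC box, 3 motifs were searched on both strands, and none of the motifs contains another. The TATA motif, TATAAA, was found in 14.2% of all windows. The second motif, CCAAT, was present in 37.5% of them. The letters TGACG, which open a cyclic AMP response element, stood in 21.2%. Neither the Grm5 window nor the Grm8 window (47.3% GC, 6 CG pairs) had a match to any motif searched.

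Libraries held 11.65 to 24 M counts. Drd1, Adora2a and Ppp1r1b, markers of medium spiny neurons, had counts in every library, and 0 of the 10 markers listed for these neurons were at 0 throughout. Libraries of the same group differed in transcripts of neighbouring tissue. Slc17a6, the glutamate transporter of subcortical neurons, was at 20 CPM or more (up to 47.0 CPM, counts relative to the library total) in 6 libraries, against at most 16.8 CPM in the other 26. These 6 were libraries 2 and 7 of CBD with the anxiety cue, library 5 of vehicle with the anxiety cue and libraries 4, 7 and 8 of vehicle with the neutral cue. Slc17a7, the transporter of cortical neurons, stood at 877 CPM in CBD neutral-cue library 6, against at most 62.3 CPM elsewhere. The liver transcript Alb was at 20 CPM or more in 10 libraries, of which 4 were CBD neutral-cue and 0 vehicle neutral-cue libraries. The fat transcript Plin1 was at 5 CPM or more in 10 other libraries, of which 0 were CBD neutral-cue and 5 vehicle neutral-cue libraries. For the comparisons with vehicle neutral-cue libraries, the members' fold changes are therefore also given without the libraries high in Slc17a6 or Plin1. Without the libraries high in Alb only changes of sign are given, in the closing section. In bulk RNA, fewer cells of a type and less RNA per cell cannot be told apart.

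Grm5 encodes mGlu5, the Gq-coupled receptor that binds Homer scaffolds, and had 4152 to 11894 counts per library. Levels here and below are in CPM after TMM scaling, uncorrected for gene length and so not compared between genes. The lowest, median and highest levels of Grm5 were 282, 397 and 509.6 CPM in CBD anxiety-cue libraries and 239, 472 and 546 CPM in vehicle anxiety-cue libraries. They were 367, 414 and 595 CPM in CBD neutral-cue libraries, against 201, 356 and 461 CPM in vehicle neutral-cue libraries. Every CBD neutral-cue library was above 5 of the 8 vehicle neutral-cue libraries, and the ranges of all 4 groups overlapped. In each of the 3 groups that held libraries with much Slc17a6, one of these was the lowest. By mean, CBD neutral-cue libraries were highest (451 ± 80.4 CPM) and vehicle anxiety-cue libraries next (434 ± 119.6 CPM), with CBD anxiety-cue libraries (398 ± 78.1 CPM) and vehicle neutral-cue libraries (345 ± 93.9 CPM) after them (SD, n = 8 each). Each step between neighbours in this order was within 1 SD.

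Grm2 encodes mGlu2, a group II receptor known as a brake on glutamate release at cortical and thalamic terminals. It had 29 to 375 counts per library, and its lowest, median and highest levels were 1.87, 3.93 and 7.37 CPM in CBD anxiety-cue libraries and 1.92, 3.73 and 9.11 CPM in vehicle anxiety-cue libraries. They were 2.18, 3.06 and 23.0 CPM in CBD neutral-cue libraries and 2.95, 4.74 and 13.8 CPM in vehicle neutral-cue libraries. All 4 ranges overlapped, and the library at 23.0 CPM was the one with 877 CPM of the cortical transporter Slc17a7; the part of cortical tissue in this value was not tested. Without it the CBD neutral-cue libraries reached 7.36 CPM. Grm2 was the most variable member, with a coefficient of variation of 77.5% over the 32 libraries, against 10.1% from counting error alone.

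Grm3 encodes mGlu3, the group II receptor of neurons and astrocytes. Its lowest, median and highest levels were 52.5, 59.7 and 90.2 CPM in CBD anxiety-cue libraries and 60.6, 64.3 and 110.4 CPM in vehicle anxiety-cue libraries. They were 57.1, 75.7 and 96.9 CPM in CBD neutral-cue libraries and 58.0, 70.0 and 85.5 CPM in vehicle neutral-cue libraries. In the CBD anxiety-cue group 5 of 8 libraries were at or below 60.2 CPM, whereas vehicle anxiety-cue libraries started at 60.6 CPM, with overlap above that level. The mean was 77.0 ± 14.3 CPM in CBD neutral-cue libraries, 75.3 ± 19.1 CPM in vehicle anxiety-cue libraries, 70.3 ± 8.92 CPM in vehicle neutral-cue libraries and 64.9 ± 13.4 CPM in CBD anxiety-cue libraries (SD, n = 8 each), and neighbours in this order were within 1 SD of each other. The libraries with much Slc17a6 (53.6 to 71.8 CPM of Grm3) lay within the range of the others (52.5 to 110.4 CPM).

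Grm4 encodes mGlu4, a group III receptor on the terminals of striatal projection neurons. Its lowest, median and highest levels were 49.6, 85.8 and 113.5 CPM in CBD anxiety-cue libraries and 38.4, 93.9 and 109.2 CPM in vehicle anxiety-cue libraries. They were 79.4, 90.6 and 105.5 CPM in CBD neutral-cue libraries and 30.8, 78.0 and 99.2 CPM in vehicle neutral-cue libraries. The CBD neutral-cue group lacked low libraries, while 3 vehicle neutral-cue libraries were at or below 51.8 CPM. Another 2 lay just below the lowest CBD neutral-cue library, and the remaining 3 were within the CBD range. By mean the groups ran from CBD with the neutral cue (91.9 ± 10.6 CPM) over vehicle with the anxiety cue (88.3 ± 21.7 CPM) and CBD with the anxiety cue (83.2 ± 22.6 CPM) to vehicle with the neutral cue (69.4 ± 26.5 CPM; SD, n = 8 each), with neighbours closer than their SDs.

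Grm7 encodes mGlu7, a low-affinity group III receptor of the presynaptic active zone, and was the least variable member. Its lowest, median and highest levels were 57.0, 73.0 and 81.1 CPM in CBD anxiety-cue libraries and 46.1, 71.5 and 85.4 CPM in vehicle anxiety-cue libraries. They were 65.9, 69.5 and 84.4 CPM in CBD neutral-cue libraries and 49.0, 65.7 and 68.8 CPM in vehicle neutral-cue libraries. Of the 8 CBD neutral-cue libraries 5 were above the highest vehicle neutral-cue library, and the other 3 overlapped with that group. The mean was 71.9 ± 6.38 CPM in CBD neutral-cue libraries, 71.1 ± 11.4 CPM in vehicle anxiety-cue libraries, 70.6 ± 7.99 CPM in CBD anxiety-cue libraries and 63.1 ± 6.63 CPM in vehicle neutral-cue libraries (SD, n = 8 each). The first 3 of these differed by far less than 1 SD.

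Grm8 encodes mGlu8, a presynaptic group III receptor, and had 49 to 387 counts per library. Its lowest, median and highest levels were 2.82, 9.75 and 13.9 CPM in CBD anxiety-cue libraries and 4.59, 9.00 and 13.8 CPM in vehicle anxiety-cue libraries. They were 6.75, 9.03 and 14.0 CPM in CBD neutral-cue libraries and 6.51, 12.3 and 18.3 CPM in vehicle neutral-cue libraries. The 3 highest libraries of all were vehicle neutral-cue libraries, and the rest of that group overlapped with the other groups. The mean was 12.7 ± 4.53 CPM in vehicle neutral-cue libraries, 9.52 ± 2.58 CPM in CBD neutral-cue libraries, 9.29 ± 3.79 CPM in CBD anxiety-cue libraries and 8.85 ± 3.19 CPM in vehicle anxiety-cue libraries (SD, n = 8 each). The last 3 of these were within 1 SD of each other, and the step to the first was larger than the SD of CBD neutral-cue libraries and smaller than that of vehicle neutral-cue libraries.

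**Figure D1:**
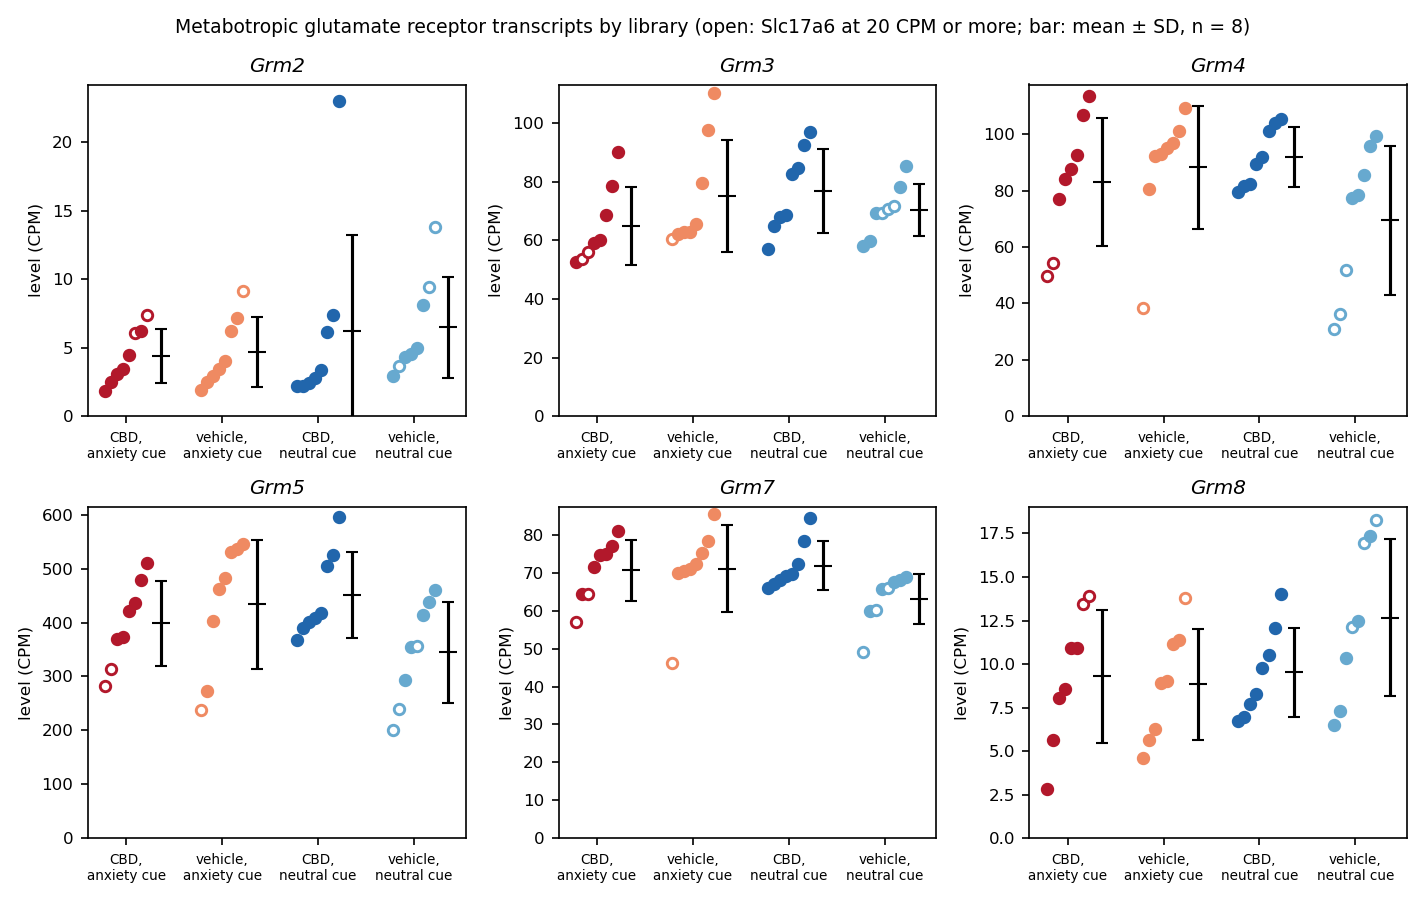
Level of each member (y axis, TMM-scaled CPM, from 0) in each library, by group on the x axis and sorted within a group. Points are libraries, open where Slc17a6 was at 20 CPM or more, and the bars give mean ± SD of 8 libraries (cut at 0 for Grm2, whose CBD neutral-cue SD of 7.08 exceeds its mean of 6.18 CPM); the 6 open points of Grm4 lie below all filled ones.

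Grm6, the receptor of retinal bipolar cells, had 0 to 24 counts and was not tested.

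In vehicle-treated rats, libraries of the anxiety cue had higher means of Grm3, Grm4, Grm5 and Grm7 and lower means of Grm2 and Grm8 than libraries of the neutral cue. None of these differences passed the test. By edgeR's quasi-likelihood test, adjusted by Benjamini and Hochberg over all genes, 0 of the 6 members and 0 of 17059 genes (0%) passed 0.05. DESeq2 also gave 0 members and 0 genes. At an unadjusted p under 0.05 in edgeR there were 0 members and 12.7% of all genes, and in removals of 1 library 0 to 4 members (4 without vehicle anxiety-cue library 5, 3 without vehicle neutral-cue library 3). Fitted log2 fold changes of anxiety cue over neutral cue were 0.33 for Grm5 (SE 0.17, 95% interval -0.02 to 0.68, adjusted p = 0.398), 0.35 for Grm4 (SE 0.21, -0.07 to 0.77, adjusted p = 0.439) and 0.17 for Grm7 (SE 0.09, -0.01 to 0.35, adjusted p = 0.399). Grm8 was at -0.52 (SE 0.26, -1.05 to 0.01, adjusted p = 0.394). Grm3 was at 0.10 (-0.17 to 0.37) and Grm2 at -0.48 (-1.37 to 0.41), with adjusted p of 0.727 and 0.592. The median member was at 0.13, against 4e-04 over all genes, whose median absolute log2 fold change was 0.126. The 10 medium spiny neuron markers were all above 0 in the same comparison, with a median of 0.44, and the 5 septal and subcortical markers all below 0, with a median of -0.76. The members' values with septal, cortical and oligodendrocyte markers as covariates are given further on.

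Under the neutral cue, CBD libraries had higher means of Grm3, Grm4, Grm5 and Grm7 and lower means of Grm2 and Grm8 than vehicle libraries, again without a member past the test. The 8 vehicle neutral-cue libraries are the same as in the comparison of the cues under vehicle, so both sets of values move together with them. In edgeR 0 members and 0% of all genes passed the adjusted threshold. DESeq2's Wald test gave 0 members and 349 genes. At an unadjusted p under 0.05 there were 2 of 6 members, Grm5 and Grm7, against 22.6% of all genes. The log2 fold changes of CBD over vehicle were 0.39 for Grm5 (SE 0.17, 95% interval 0.04 to 0.74, adjusted p = 0.185), 0.19 for Grm7 (SE 0.09, 0.01 to 0.37, adjusted p = 0.211) and 0.41 for Grm4 (SE 0.21, -0.02 to 0.83, adjusted p = 0.236). Grm8 was at -0.41 (SE 0.26, -0.94 to 0.12, adjusted p = 0.330). Grm3 was at 0.13 (-0.14 to 0.40) and Grm2 at -0.07 (-0.96 to 0.81), with adjusted p of 0.562 and 0.934. The Grm2 value depended on CBD neutral-cue library 6, which held 877 CPM of Slc17a7, and was -0.78 without it. Over the removals of 1 library the smallest edgeR p of Grm2 was 0.0432 unadjusted and 0.22 adjusted. The median member was at 0.16, against 0.0055 over all genes, whose median absolute log2 fold change was 0.146. The medium spiny neuron markers were again all above 0 (median 0.51) and the septal and subcortical markers all below 0 (median -0.93). The 6 oligodendrocyte markers (median -0.43) and the 3 fat markers (median -4.46) were all below 0 too, and the part of oligodendrocytes or fat alone in the members' values was not tested. The count of 2 members was 0 without CBD neutral-cue library 2, CBD neutral-cue library 8 or vehicle neutral-cue library 4. It was 1 without CBD neutral-cue library 3 or 4 or vehicle neutral-cue library 2, 7 or 8, and at most 3 in the other removals of 1 library.

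Under the anxiety cue, CBD libraries had lower means than vehicle libraries for 5 of the 6 members and a higher one for Grm8, all within the spread of the libraries. In edgeR 0 members and 0% of genes passed the adjusted threshold, DESeq2 also gave 0 of each, and 1.58% of genes (270) and 0 members had an unadjusted p under 0.05. Without vehicle anxiety-cue library 5 there were 566 such genes, and without CBD anxiety-cue library 8 there was 1 such member, Grm3 (edgeR unadjusted p = 0.0294). The log2 fold changes of CBD over vehicle were -0.22 for Grm3 (SE 0.13, -0.49 to 0.05), -0.12 for Grm5 (-0.47 to 0.22) and -0.09 for Grm4 (-0.51 to 0.33). Grm7 was at -0.01 (-0.19 to 0.17), Grm2 at -0.09 (-0.98 to 0.81) and Grm8 at 0.07 (-0.46 to 0.60), and all 6 adjusted p were 1. The interval was narrowest for Grm7 and widest for Grm2. The vehicle anxiety-cue libraries are shared with the comparison of the cues under vehicle.

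The cue in CBD-treated rats gave log2 fold changes below 0 for all 6 members, none past the threshold (0 members and 0% of genes in edgeR, 0 and 0 in DESeq2). Among all genes 48.8% were above 0. Grm3 was at -0.25 (SE 0.13, -0.52 to 0.02, adjusted p = 0.995), Grm5 at -0.18 (-0.53 to 0.17) and Grm4 at -0.14 (-0.56 to 0.28). Grm7 was at -0.03, Grm8 at -0.04 and Grm2 at -0.50, the last with an interval of -1.39 to 0.40. The direction was not stable, and Grm2 was at 0.21 without CBD neutral-cue library 6. With septal, cortical and oligodendrocyte markers as covariates, Grm4 (0.0261), Grm5 (0.0066) and Grm7 (0.043) were above 0. At an unadjusted p under 0.05 stood 0 members and 3.94% of genes, and 1 member without CBD anxiety-cue library 6, CBD anxiety-cue library 8 or CBD neutral-cue library 4. The median member was at -0.16, against -0.0035 over all genes, whose median absolute log2 fold change was 0.0817. The medium spiny neuron markers were at -0.11, with 0 of 10 above 0.

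The interaction, which asks whether the CBD effect differed between the cues, had 0 members and 0% of genes past the adjusted threshold in edgeR, and 0 members and 11 genes in DESeq2. Unadjusted, 1 of 6 members (Grm5) and 13.8% of genes were under 0.05; that count was 0 in 15 of the 32 removals of 1 library and 3 without vehicle anxiety-cue library 5. Grm5 was at -0.51 (SE 0.24, 95% interval -1.0025 to -0.019, adjusted p = 0.349), that is, its CBD effect was lower by this much under the anxiety cue than under the neutral cue in the fit. Grm4 was at -0.49 (SE 0.29, -1.09 to 0.10, adjusted p = 0.430), Grm3 at -0.35 (SE 0.19, -0.73 to 0.04, adjusted p = 0.401) and Grm7 at -0.20 (-0.46 to 0.06). Grm8 was at 0.48 (-0.27 to 1.23) and Grm2 at -0.02 (-1.27 to 1.24). The medium spiny neuron markers had a median of -0.55 and the septal and subcortical ones of 1.21.

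Averaged over both treatments, the cue gave 0 members and 0% of genes past the adjusted threshold, with 3.63% of genes and 0 members at an unadjusted p under 0.05, and averaged over both cues CBD gave 0 and 0%, with 7.27% and 0. DESeq2 gave 0 members in both, and 0 and 13 genes. Without vehicle anxiety-cue library 5, 1061 genes (against 619) and 1 member had such an unadjusted p for the cue and 798 genes (against 1240) for CBD, and without CBD anxiety-cue library 2 there were 1918 genes for CBD. Leaving out vehicle neutral-cue library 2 also gave over 1.5 times as many genes for the cue as all libraries did. The mean cue effect was -0.49 for Grm2 (-1.12 to 0.14), and -0.14 without CBD neutral-cue library 6. It was -0.28 for Grm8 (-0.65 to 0.10), and the other members were between -0.08 (Grm3) and 0.10 (Grm4). The mean CBD effect was 0.16 for Grm4 (-0.14 to 0.46), 0.13 for Grm5 (-0.11 to 0.38) and 0.09 for Grm7 (-0.04 to 0.22), with Grm8 at -0.17, Grm2 at -0.08 and Grm3 at -0.04.

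**Figure D2:**
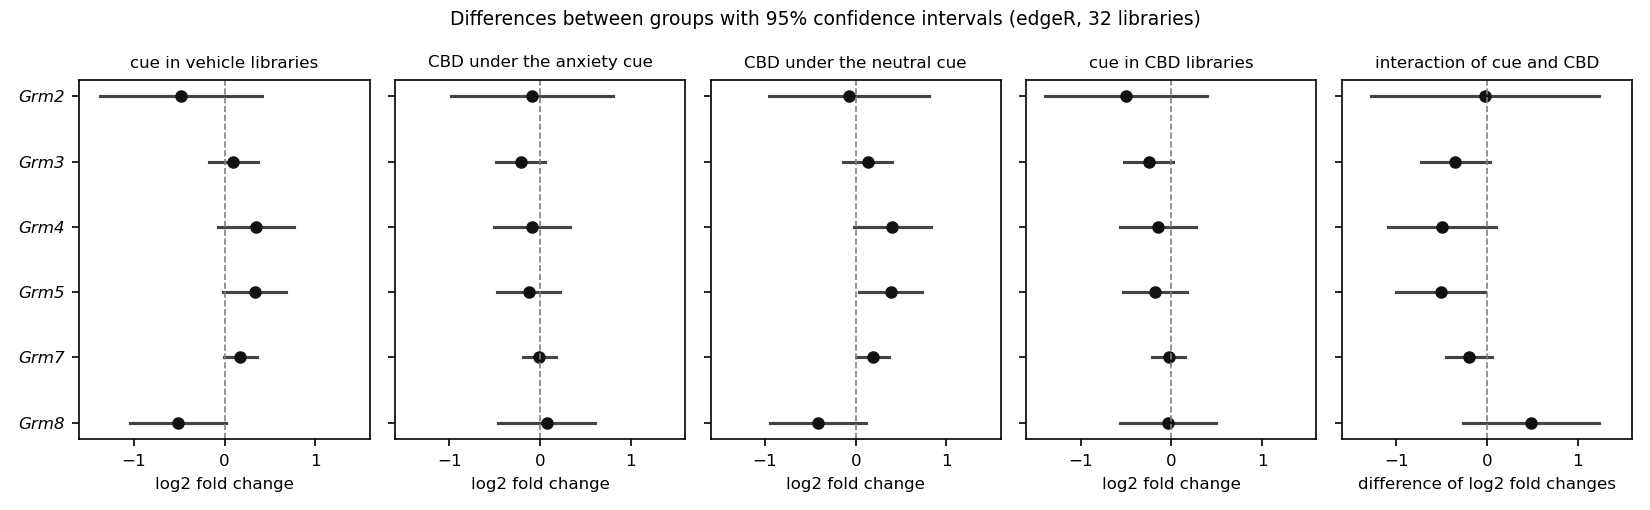
Fitted log2 fold changes (x axis) of the 6 members in 4 comparisons and, at the right, the difference of the CBD effects between the cues, with 95% confidence intervals from edgeR. Only the intervals of Grm5 and Grm7 for CBD under the neutral cue and of Grm5 for the interaction exclude 0, and none of these passed the threshold after adjustment over 17059 genes.

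Levels of several members differed between the libraries with much and with little Slc17a6. In the 6 libraries with much Slc17a6, Grm4 had a lowest, median and highest level of 30.8, 44.0 and 54.3 CPM, against 77.1, 92.4 and 113.5 CPM in the other 26, with no overlap. Grm5 was at 201, 261 and 357 CPM in the 6, against 274, 429 and 595 CPM in the 26. Grm7 was at 46.1, 58.5 and 65.9 CPM in the 6, against 60.0, 70.7 and 85.4 CPM in the 26. For Grm5 and for Grm7, 3 of the 6 libraries lay below all 26 others. Grm8 ran the other way, with 12.1, 13.8 and 18.3 CPM in the 6, against 2.82, 8.76 and 17.3 CPM in the 26, with overlap. So did Grm2 by its median, with 3.68, 8.24 and 13.8 CPM in the 6, against 1.87, 3.45 and 23.0 CPM in the 26. Medium spiny neuron markers were low in the same 6 libraries, with Drd1 at 56.6 to 179 CPM in the 6, against 255 to 475 CPM in the 26, and Ppp1r1b at 348 to 832 CPM in the 6, against 1366 to 2685 CPM in the 26.

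The summed level of the 10 medium spiny neuron markers ranged from 2049 to 7233 CPM in CBD anxiety-cue libraries, from 1369 to 6952 CPM in vehicle anxiety-cue libraries, from 4202 to 6320 CPM in CBD neutral-cue libraries and from 1114 to 5859 CPM in vehicle neutral-cue libraries. The sum of the 5 septal and subcortical markers ranged from 28.9 to 98.7 CPM in CBD anxiety-cue libraries, from 25.2 to 124 CPM in vehicle anxiety-cue libraries, from 22.8 to 77.7 CPM in CBD neutral-cue libraries and from 28.7 to 153 CPM in vehicle neutral-cue libraries, and 0 markers of either list were at 0 throughout. Within the 26 libraries with little Slc17a6, after subtracting group means, the log2 level of Grm4 still correlated with the mean of the medium spiny neuron markers at r = 0.70, that of Grm5 at 0.46 and that of Grm7 at 0.16. Grm8 was at -0.57, Grm2 at -0.25 and Grm3 at 0.14, and Grm3 was at 0.15 with the 7 astrocyte markers. Of the 11 marker lists, others lay further from 0 than the medium spiny neuron list for some members. Grm5 was at -0.71 with the 5 interneuron markers and at -0.59 with the septal and subcortical ones, and Grm7 at -0.60 with the astrocyte and at -0.52 with the microglia markers. Grm8 was at 0.57 with the septal and subcortical markers, Grm2 at 0.45 with the 2 cortical markers tested and Grm3 at -0.43 with the 3 liver markers. The 26 libraries include CBD neutral-cue library 6, with 877 CPM of Slc17a7 and 23.0 CPM of Grm2. How far the 0.45 rests on this library was not tested. All these correlations are descriptions over libraries that share their depth and scaling, with no test.

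**Figure D3:**
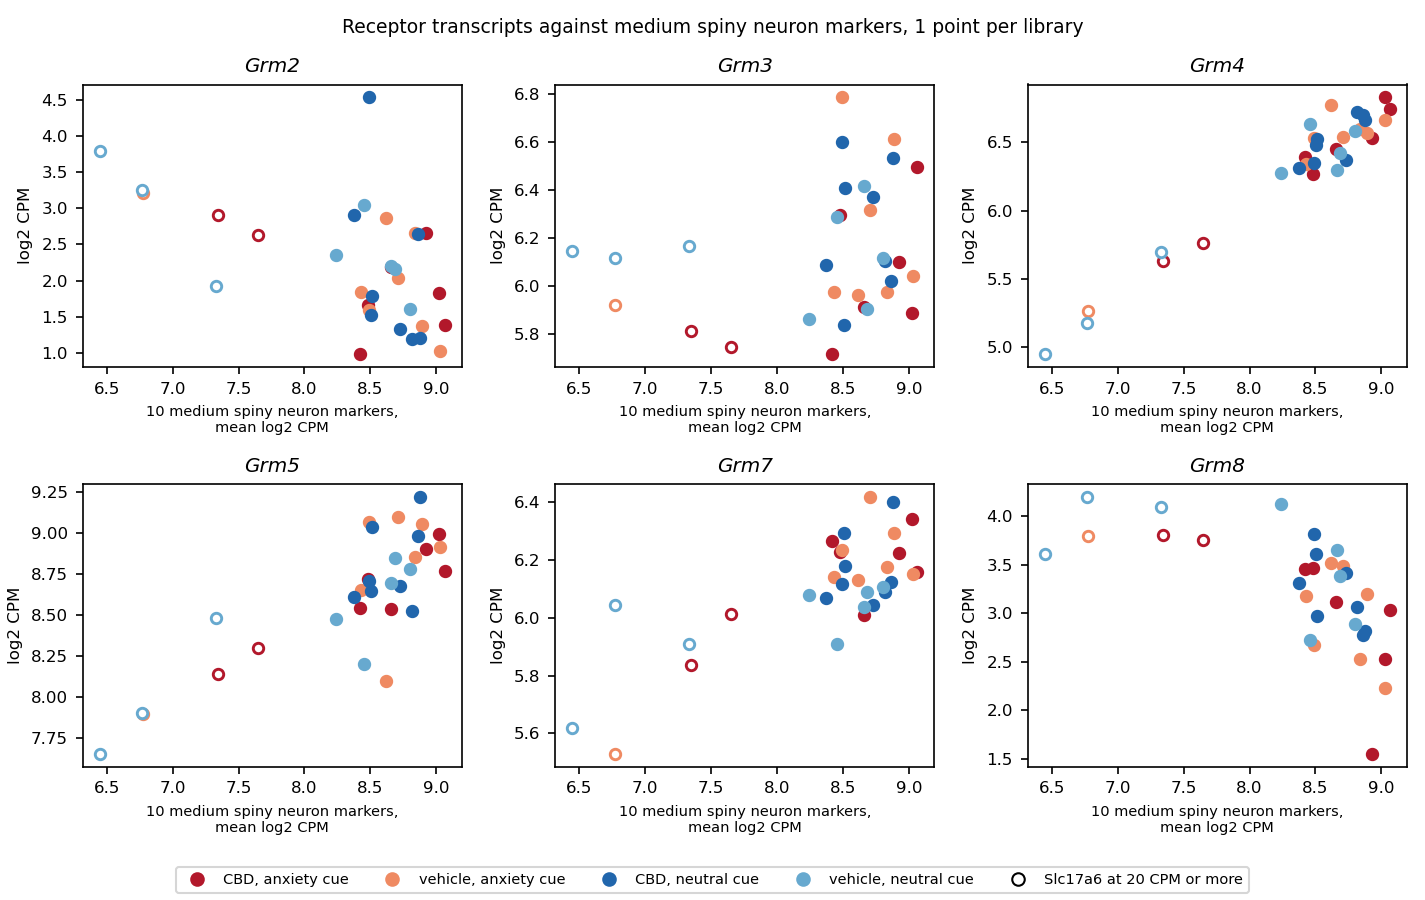
Level of each member (y axis, log2 CPM) against the mean log2 CPM of 10 medium spiny neuron markers (x axis), with 1 point per library coloured by group and open where Slc17a6 was at 20 CPM or more. The open points sit at the left, low for Grm4, Grm5 and Grm7 and high for Grm8, and the line of points goes on among the filled ones for Grm4 (r = 0.70 over 26 libraries after subtracting group means).

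Without the 6 libraries high in Slc17a6, Grm4 averaged 93.6 ± 14.0 CPM in CBD anxiety-cue libraries (SD, n = 6), 95.4 ± 8.73 CPM in vehicle anxiety-cue libraries (n = 7), 91.9 ± 10.6 CPM in CBD neutral-cue libraries (n = 8) and 87.3 ± 9.87 CPM in vehicle neutral-cue libraries (n = 5). Its log2 fold change was then 0.12 for the cue under vehicle and 0.07 for CBD under the neutral cue, against 0.35 and 0.41 with all 32 libraries. Grm5 was at 0.22 and 0.20, against 0.33 and 0.39, and Grm7 at 0.16 and 0.12, against 0.17 and 0.19. Grm8 was at -0.43 and -0.19, against -0.52 and -0.41. Grm3 was at 0.13 in both, against 0.10 and 0.13, and Grm2 at -0.32 and 0.31, against -0.48 and -0.07. None of these passed the threshold in the smaller fit, where 19 and 31 genes did. The smaller fit kept CBD neutral-cue library 6, which was high in Slc17a7 and in Grm2.

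With the levels of septal, cortical and oligodendrocyte markers as covariates in edgeR, the values for CBD under the neutral cue were -0.029 for Grm4, -0.0295 for Grm5 and -0.0102 for Grm7, and those for the cue under vehicle 0.0278 for Grm4, 0.0422 for Grm5 and 0.0387 for Grm7. Grm8 was at -0.0622 for CBD under the neutral cue and -0.18 for the cue under vehicle, Grm3 at -0.04 and 0.034, and Grm2 at -0.0522 and -0.025. Adjusted p were 0.931 or more for all 6 members in both comparisons. Leaving out the 10 libraries high in Plin1 gave values further from 0 for Grm4, Grm5 and Grm8 in both comparisons. Of all fits run, members passed the threshold only in that fit. Grm4 was then at 0.72 for the cue under vehicle (SE 0.21, adjusted p = 0.0238) and at 0.71 for CBD under the neutral cue (SE 0.20, adjusted p = 0.0205), and Grm8 at -1.03 for the cue (SE 0.35, adjusted p = 0.0449) and at -0.74 for CBD. Grm5 was at 0.50 for the cue and 0.41 for CBD, Grm7 at 0.22 and 0.16, Grm3 at -0.056 and 0.0164, and Grm2 at -0.72 and 0.0606. That fit kept 3 vehicle neutral-cue libraries, of which 2 (7 and 8) were among those with much Slc17a6, and it called 2972 and 2761 genes.

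**Figure D4:**
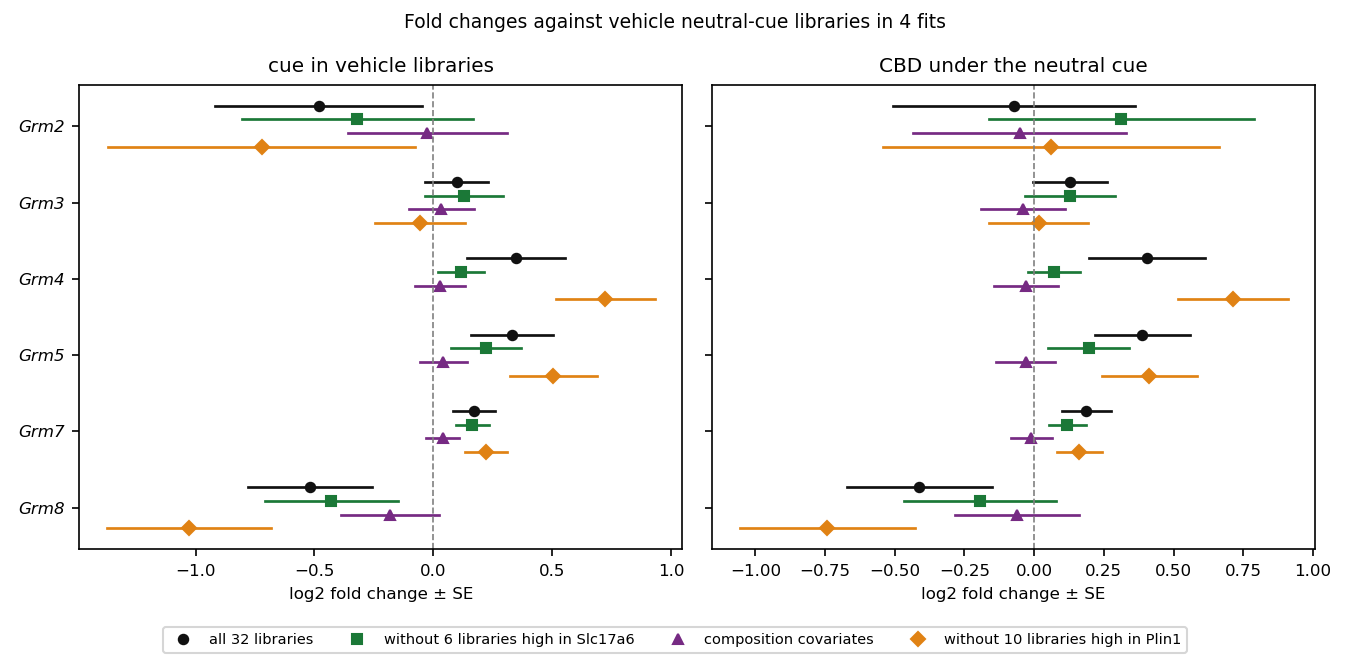
Log2 fold change ± SE (x axis) of each member for the anxiety over the neutral cue under vehicle (left) and for CBD over vehicle under the neutral cue (right) in 4 edgeR fits. Grm4 lies near 0 with composition covariates and at 0.72 and 0.71 without the libraries high in Plin1, with the fit of all 32 libraries between them.

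Members were also set against each other across the 26 libraries with little Slc17a6, on the log2 scale after subtracting group means. Grm5 and Grm7 had the highest correlation of the 15 pairs (r = 0.64), followed by Grm3 and Grm5 (0.39), while Grm4 and Grm8 were at -0.52. Grm4 with Grm5 was at 0.08 and with Grm7 at 0.12, against 0.71 and 0.70 when the 6 libraries high in Slc17a6 were included, so those values rested on the 6. By the same measure over all 32 libraries, the genes most like Grm4 were Adcy5, the main striatal adenylyl cyclase (r = 0.99), Ngef, Sez6 and Actn1 (0.98 each). Over the 26 libraries they were at 0.91, 0.82, 0.83 and 0.83. Those most like Grm5 were Cyld, a deubiquitinase, Mef2a, a transcription factor, and Ppp1r9a, an actin-binding scaffold (0.96 each), with 0.91 to 0.93 over the 26.

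For Grm8 the nearest genes were Camk2d, a calcium/calmodulin-dependent kinase (0.91, and 0.89 over the 26), Fgf12, Glra2, a glycine receptor subunit, and Grin3a, an NMDA receptor subunit (0.84 to 0.86, and 0.78 to 0.81). For Grm3 they were Zfp709l1, Dok6, Stxbp5l and Ptar1 (0.81 to 0.83, and 0.84 to 0.902 over the 26), after 1 locus without a name. For Grm7, Gria1, an AMPA receptor subunit, Gipc2, and Nr3c2, the mineralocorticoid receptor, were at 0.84 to 0.85 and at 0.57 to 0.70 over the 26. For Grm2, Bmper was at 0.80 (0.75 over the 26), with Tpm2, Nxph3 and Tspan17 at 0.75 to 0.76. The 26 still include CBD neutral-cue library 6, where Grm2 was highest, and its part in these values was not tested. The points of each correlation share their libraries, depth and tissue make-up.

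Of 56 genes listed for scaffolds, signalling, regulation and glutamate handling around these receptors, 53 were tested and 0 passed the adjusted threshold in any of the 7 comparisons. At an unadjusted p under 0.05, CBD under the neutral cue had 15 higher and 6 lower, where 10.5% of all genes were higher and 12% lower. The median log2 fold change of the listed genes was 0.07, against 0.0055 over all genes, whose median absolute value was 0.146. The cue under vehicle had 8 higher and 1 lower, against 6.41% and 6.34% of all genes, with a median of 0.01. Among the 10 genes of group I signalling, 7 were higher and 2 lower for CBD under the neutral cue. For the interaction 1 was higher and 6 were lower. With CBD under the neutral cue, scaffolds had 3 and 1, group II and III signalling 3 and 1, regulators 1 and 0 and glutamate handling 1 and 2. Pathway genes are given only from the fit of all 32 libraries. Medium spiny neuron markers also moved in these 2 comparisons (medians 0.51 and -0.55). The part of tissue make-up in the pathway counts was not tested. The interaction had 5 higher and 9 lower in the whole list (7.02% and 6.78% of all genes), and the cue under CBD 0 and 4 (1.65% and 2.29%). CBD under the anxiety cue had 0 and 0 (0.75% and 0.832%), the mean cue effect 0 and 2 (1.89% and 1.74%) and the mean CBD effect 0 and 1 (3.16% and 4.11%).

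Dagla, which makes the endocannabinoid 2-arachidonoylglycerol after mGlu5 activation, averaged 115 ± 14.2 CPM in vehicle anxiety-cue libraries and 97.3 ± 15.4 CPM in vehicle neutral-cue libraries (SD, n = 8 each), a log2 fold change of 0.25 (SE 0.09, edgeR adjusted p = 0.374). For CBD under the neutral cue, Shank2, a postsynaptic scaffold, averaged 277 ± 24.0 CPM in CBD libraries and 224 ± 46.3 CPM in vehicle libraries, at 0.31 (SE 0.11, adjusted p = 0.124). Plcb4, a phospholipase C, averaged 27.1 ± 6.88 CPM in CBD libraries and 51.4 ± 32.8 CPM in vehicle libraries, at -0.92 (SE 0.32, adjusted p = 0.124). Of the libraries with much Slc17a6, 3 were vehicle neutral-cue and 0 CBD neutral-cue libraries. Their part in the values of Shank2 and Plcb4 was not tested. In the interaction Prkca, a protein kinase C activated downstream of Gq, was at -0.43 (adjusted p = 0.321). In the remaining comparisons small p belonged to Prkca (-0.15) for CBD under the anxiety cue, Prkca (-0.25) and Adcy1 (-0.63) for the cue in CBD libraries, Kcnj3 (-0.50) and Homer2 (-0.31) for the mean cue effect, and Folh1 (-0.30) and Plcb4 (-0.42) for the mean CBD effect, with adjusted p of 0.626 or more.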

How the data were processed

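RNA sequencing measured polyadenylated RNA in 32 libraries. The authors deposited whole-number read counts per gene symbol. Per the submitters' processing notes, the tools were STAR, which aligns reads, featureCounts, which counts them, and DESeq2, and Rnor_6.0 and mRatBN7.2 are the builds named, without their roles. Versions and the strand setting are not given in the sources used here. Genes that overlap others may therefore have uncertain counts. All columns were matched by title (0 columns unused). Library numbers follow the order of deposition and pair no libraries.

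The main tests used edgeR 4.0.16 (R 4.3.3). Its filterByExpr kept 17059 genes and left out 17263, TMM scaled the libraries, and a quasi-likelihood model with 4 group means was fitted to all 32, with 7 contrasts. Benjamini-Hochberg adjustment ran over all genes kept, and 0.05 was the threshold. The SE is the log2 fold change over the square root of F. Log2 CPM carried a prior count of 2. Thresholds on marker transcripts (20 CPM of Slc17a6, 100 of Slc17a7, 20 of Alb and 5 of Plin1) used CPM of the total count, while printed levels of other genes are TMM-scaled. Over the 112 pairs of libraries within groups, a chi-square on counts gave 5.24 to 102.7 per degree of freedom, and 0 pairs were identical.

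The alternatives were DESeq2 1.42.0, its size factors in edgeR, no filter on low counts, fits of the compared groups alone, marker covariates, and leaving out each library or the libraries high in a marker. Scripts were tested on simulated data. The members, gene lists and alternatives were chosen with earlier results of these data known. The rule for naming took all members, the other Grm genes, the 4 named genes most like each member and the 2 pathway genes with the smallest p per comparison, of which some are not reported here.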

Additional observations from a re-analysis of the deposited data

Results flagged for a closer look

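Among 24 sets of 8 libraries (6 members in 4 groups), 4 held a library far from the rest of its group. The rule would flag about 1 set in 20 for independent, normally distributed values. The sets share their libraries between members, so the count of 4 cannot be read against that share. Grm2 stood at 23.0 CPM in CBD neutral-cue library 6, and the next highest library of that group was at 7.36 CPM. This library also held the 877 CPM of Slc17a7. Grm4 stood at 38.4 CPM in vehicle anxiety-cue library 5, with the next lowest at 80.8 CPM, and Grm7 at 46.1 CPM in the same library, with the next at 69.9 CPM. Grm7 was at 49.0 CPM in vehicle neutral-cue library 4, with the next lowest at 60.0 CPM. The last 2 libraries were both among the 6 high in Slc17a6. Whether neighbouring tissue accounts for these values was not tested.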

How the results depend on the processing

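No paired analysis was possible because the labels give no replicate numbers, and those used here follow the order of deposition. Over all alternatives 1746 values of the members were computed, of which 3 passed the adjusted threshold (all without the libraries high in Plin1) and 81 had the other sign from the fit of all libraries.

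Against 0 genes in the fit of all 32 libraries, DESeq2 called 349 for CBD under the neutral cue, 11 for the interaction and 13 for the mean CBD effect. The compared groups alone gave 4 for CBD under the neutral cue. Without the libraries high in Slc17a6, 19 were called for the cue under vehicle and 31 for CBD under the neutral cue, and 15 and 29 without the 5 libraries highest in Slc17a6, a setting chosen after seeing the data. Without the libraries high in Plin1 the counts were 2972 for the cue under vehicle, 2761 for CBD under the neutral cue, 1475 for the interaction and 109 for the mean cue effect, and 2 members (Grm4, Grm8), 1 member (Grm4), 0 and 0. Removing 1 library at a time gave 0 to 165 genes for CBD under the neutral cue (165 without vehicle anxiety-cue library 5, 68 without vehicle anxiety-cue library 4), 0 to 10 for the interaction (vehicle anxiety-cue library 5), 0 to 61 for the mean CBD effect (vehicle anxiety-cue library 4), and 0 members in every removal. Genes under an unadjusted 0.05 for the cue in vehicle libraries numbered 2175 with all libraries and 1255 to 4326 in these removals.

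Signs turned with marker covariates for CBD under the neutral cue (Grm3 -0.04, Grm4 -0.029, Grm5 -0.0295, Grm7 -0.0102), for CBD under the anxiety cue (Grm8 -0.12), for the cue in CBD libraries (Grm4 0.0261, Grm5 0.0066, Grm7 0.043), for the interaction (Grm7 0.0042, Grm8 -0.0545) and for the mean CBD effect (Grm4 -0.0298, Grm5 -0.0473, Grm7 -0.0081). Without the libraries high in Slc17a6 they turned for Grm8 (-0.0517) with CBD under the anxiety cue, Grm2 (0.31) with CBD under the neutral cue, Grm4 (0.0218) and Grm7 (0.0345) with the cue in CBD libraries, and Grm2 (0.0797) with the mean CBD effect. Without the 5 highest these were Grm2 (0.30) with CBD under the neutral cue, Grm7 (0.0131) with the cue in CBD libraries, and Grm2 (0.14) and Grm4 (-0.0239) with the mean CBD effect. Without the library high in Slc17a7, Grm2 (0.21) and Grm8 (0.0633) turned for the cue in CBD libraries and Grm2 (0.69) for the interaction. Without the libraries high in Alb, Grm2 turned for CBD under the anxiety cue (0.16), CBD under the neutral cue (0.20) and the mean CBD effect (0.18), Grm8 for the cue in CBD libraries (0.15) and Grm5 for the mean cue effect (-0.0086). Without the libraries high in Plin1, Grm3 turned for the cue in vehicle libraries (-0.056), Grm7 for the cue in CBD libraries (0.0345) and Grm2 for CBD under the anxiety cue (0.10), CBD under the neutral cue (0.0606), the interaction (0.0366) and the mean CBD effect (0.0789). The cause was not tested.

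In 45 of 1344 values with 1 library removed the sign turned. The ranges were -0.24 to 0.12 for Grm2, -0.0812 to 0.0314 for Grm7 and -0.0361 to 0.21 for Grm8 with CBD under the anxiety cue. For Grm2 with CBD under the neutral cue the range was -0.78 (without CBD neutral-cue library 6) to 0.18. For the cue in CBD libraries the ranges were -0.65 to 0.21 for Grm2, -0.0577 to 0.0127 for Grm7 and -0.14 to 0.10 for Grm8. Grm3 ran from -0.0019 to 0.14 for the cue in vehicle libraries, Grm2 from -0.27 to 0.69 for the interaction, and for the mean CBD effect Grm2 from -0.43 to 0.0481 and Grm3 from -0.0839 to 0.0071. Grm2 and Grm8 had the fewest counts of the members, and counting error was still smaller than the spread between libraries for each.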
